A study of Mus musculus with 12 samples.

Results

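The proteasome genes measured here are the 50 rows of the expression table whose symbol begins with Psma, Psmb, Psmc, Psmd, Psme, Psmf or Psmg followed by a digit, out of 18962 genes. Their RNA was measured in brains from which cerebellum and olfactory bulb had been removed, in wild-type CBA/N mice, an inbred strain. There were 4 groups of 3 libraries, namely winter males, summer males, winter females and summer females. Winter animals were kept for 4 weeks at 10 °C on days with 8 h light and 16 h dark. Summer animals were kept for 4 weeks at 30 °C on days with 16 h light and 8 h dark. Tissue was taken around one clock time in the early afternoon. Day length was changed along with temperature, and the 2 cannot be told apart. Sex and season were read from the letter codes MSC, FSC, MLW and FLW, which the labels do not spell out. The labels do not say that libraries of a group came from separate animals, so p-values rest on the spread between samples alone, and that spread may be technical.

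The proteasome is the protease that degrades proteins tagged with ubiquitin. Its barrel, the 20S core, is built of alpha rings, which form the gate, and beta rings, which hold the catalytic sites. The 19S regulatory particle binds ubiquitin chains and uses ATPases to unfold substrates and feed them into the barrel. In the immunoproteasome the constitutive catalytic subunits Psmb6, Psmb7 and Psmb5 are replaced by the interferon-inducible Psmb9, Psmb10 and Psmb8, which alters the peptides made for presentation on class I molecules. In brain the inducible subunits are known mainly from microglia and inflamed tissue, and proteasome function matters for synaptic protein turnover.

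The 50 genes fell into 14 constitutive core subunits, 3 immunoproteasome subunits, 17 subunits of the 19S particle, 3 chaperones of 19S assembly, 4 activators, 1 inhibitor, 4 chaperones of core assembly and 2 tissue-specific core subunits. The remaining 2 match by symbol only. Psmc3ip encodes a partner of meiotic recombinases, and Psme2b is a copy of Psme2. A gene was tested where it reached 1 FPKM (fragments scaled to transcript length and to the mapped fragments of the library) in at least 3 of the 12 libraries. This held for 47 of the 50 and for 13071 genes in all.

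The stretches printed here lie directly before the annotated gene start of 5 of the 6 catalytic subunits that the ratios below pair. None is printed for Psmb7. They come from RefSeq promoter windows of GRCm38.p6, and each is 100 bases long, 5′ to 3′ on the gene's strand. Capitals mark the antioxidant response element core TGACNNNGC in Psmb5, the gamma-activated site TTCNNNGAA in Psmb8 and the CCAAT box, read on the opposite strand, in Psmb9. The windows are chr17:34198095-34198194 on the plus strand for Psmb8, chr17:34187331-34187430 on the minus strand for Psmb9, chr8:105938393-105938492 on the minus strand for Psmb10, chr14:54617996-54618095 on the minus strand for Psmb5 and chr11:70525224-70525323 on the plus strand for Psmb6.
Psmb8: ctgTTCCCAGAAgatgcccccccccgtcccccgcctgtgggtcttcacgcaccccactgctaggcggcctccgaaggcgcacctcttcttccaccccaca
Psmb9: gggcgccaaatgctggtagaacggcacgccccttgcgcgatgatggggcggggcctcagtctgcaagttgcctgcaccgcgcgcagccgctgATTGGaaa
Psmb10: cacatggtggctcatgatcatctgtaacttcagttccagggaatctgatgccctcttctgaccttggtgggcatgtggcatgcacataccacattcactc
Psmb5: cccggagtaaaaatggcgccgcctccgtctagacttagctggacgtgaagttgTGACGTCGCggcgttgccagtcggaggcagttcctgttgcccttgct
Psmb6: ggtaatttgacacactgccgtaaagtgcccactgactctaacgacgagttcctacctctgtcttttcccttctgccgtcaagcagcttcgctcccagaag

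Whole windows of 250 bases before to 50 after the start were available for 42 of the 50 genes, and 5 motifs were searched on both strands. The antioxidant response element core, the site through which the transcription factor NRF1 (gene Nfe2l1) acts on proteasome genes, was found in 13.3% of 45 windows of proteasome genes and in 12.4% of all 32851 windows. In Psmb6 the window is placed on a start site 33 bases inside the annotated gene, and its match lies between the gene start and that site, outside the printed stretch. The CCAAT box was in 33.3% of proteasome windows and 37.4% of all. The gamma-activated site was in 6.7% and 8.3%, and the heat shock element core GAANNTTC in 6.7% and 7.9%. The interferon-stimulated response element core, TTTC and again TTTC after any 2 bases, was in 11.1% and 3.4%, in the windows of Psmb3, Psmd4, Psmd9, Psme1 and Psmg4. It was in 0 of the 3 immunoproteasome windows. These matches describe letters in a window and are not evidence of binding. Along the genome, Psmb9 and Psmb8 lie 10864 bases apart on chromosome 17, Psme1 and Psme2 5912 bases apart on chromosome 14, and Psmb5 and Psmb11 7314 bases apart on chromosome 14.

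Sums of FPKM per library lay between 358511 and 375041. The reads behind a value are not given, so depth is unknown. Neuronal markers summed to between 2160 and 2440 FPKM in winter and between 2080 and 2330 FPKM in summer libraries. Cerebellar markers were highest in male winter replicate 1, at a sum of 245 FPKM, against 128.84 to 158.24 FPKM in the other libraries. All 8 lay above their mean over all libraries there, as they did in female winter replicate 1. Pcp2, Cbln3 and Gabra6 stood at 24.86, 18.2 and 11.18 FPKM in male winter replicate 1. In female winter replicate 1, the next highest, they stood at 2.05, 2.64 and 1.9 FPKM. The part of cerebellar tissue in the male season values was not tested. Relative levels followed transcript GC content most strongly in female winter replicate 1 and female summer replicate 3, with Spearman correlations across 12935 genes of -0.601 and -0.658. Genes are not independent replicates, and these values describe the libraries. In bulk tissue, fewer cells of a type and less RNA per cell cannot be told apart.

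The constitutive core was expressed at a narrow range of levels. Mean FPKM over the 12 libraries ran from 58.6 for the alpha subunit Psma5 to 126 for the catalytic subunit Psmb7, with a median of 69.6 over the 14 genes. The alpha subunits, which gate the barrel, lay between 58.6 and 85.9 FPKM. The structural beta subunits lay between 61.6 FPKM for Psmb2 and 105 FPKM for Psmb1. Among the catalytic subunits, Psmb6 averaged 69.0 FPKM and Psmb5 73.2 FPKM. The 17 subunits of the 19S particle had a median of 52.6 FPKM. Its lowest was the lid subunit Psmd6 at 39.1 FPKM and its highest the ATPase Psmc5 at 111 FPKM.

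The immunoproteasome genes stood far below the core, and not equally. Psmb10 averaged 17.7 FPKM, Psmb8 1.66 FPKM and Psmb9 1.36 FPKM. Set against the constitutive subunit it replaces, Psmb10 was at 14.1% of Psmb7, with a range over libraries of 12.4% to 16.1%. Psmb8 was at 2.28% of Psmb5 (1.29% to 3.26%) and Psmb9 at 1.99% of Psmb6 (1.33% to 2.98%). Psma8, the alpha subunit of the testis proteasome, did not reach the filter and lay between 0.09 and 0.37 FPKM. Psmb11, the catalytic subunit of the thymus proteasome, lay between 0.08 and 0.19 FPKM, and also stayed below the filter.

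Regulators and assembly factors filled the space between. The activator Psme3, which forms a nuclear cap on the core, averaged 43.6 FPKM. Psme1 and Psme2, whose products form one interferon-inducible cap together, were close to each other at 25.4 and 23.8 FPKM. Psme4, the large single-chain activator, averaged 11.1 FPKM and the inhibitor Psmf1 10.1 FPKM. The core chaperones Psmg1 to Psmg4 lay between 7.17 and 13.1 FPKM. The 19S chaperones lay between 5.23 FPKM for Psmd9 and 22.9 FPKM for Psmd5, with Psmd10 at 9.23 FPKM. Psmc3ip averaged 1.15 FPKM. Psme2b was listed between 0 and 0.6 FPKM, below the filter, and the division of reads between it and Psme2 is uncertain.

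**Figure D1:**
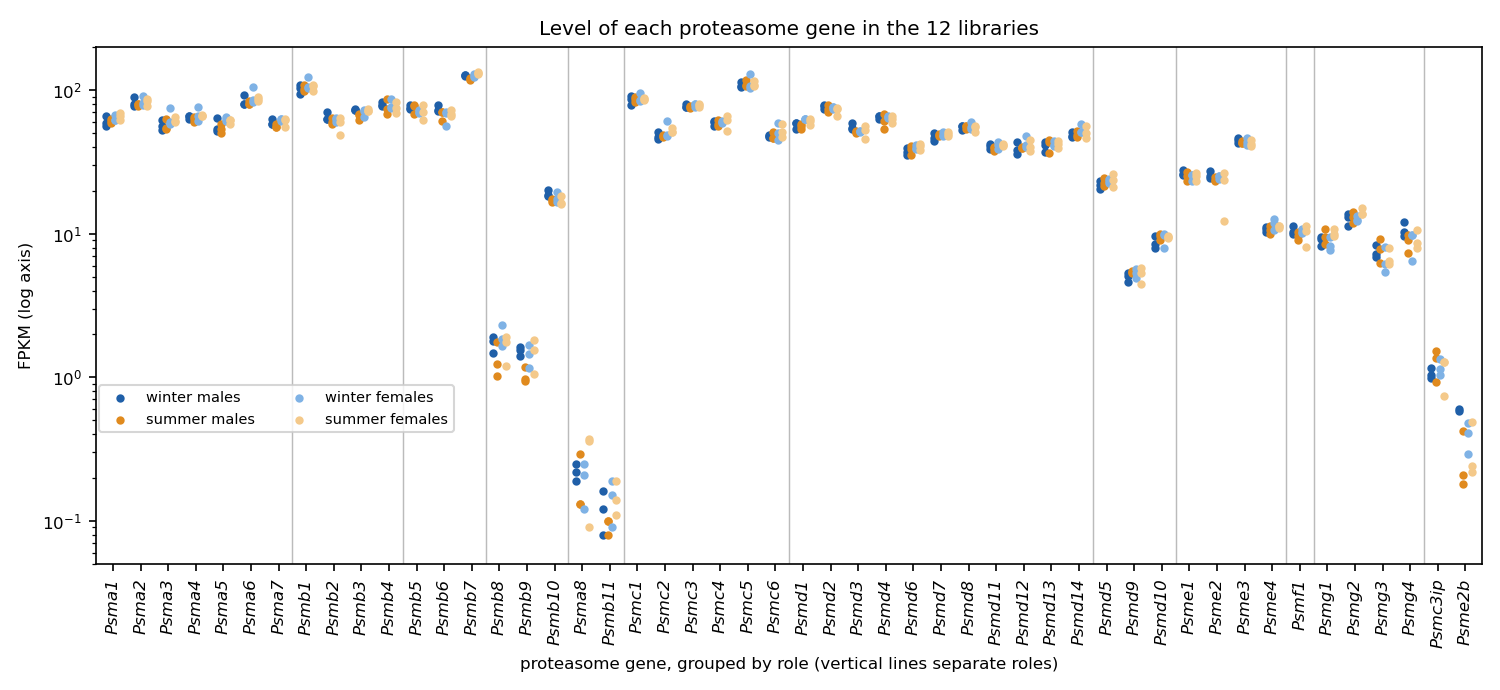
FPKM of the 50 proteasome genes (log axis) in each of the 12 libraries, grouped by role, with 3 points per group; a value of 0 for Psme2b in male winter replicate 1 cannot be drawn. Core and 19S subunits form a band with means from 39.1 to 126 FPKM, while Psmb8 and Psmb9 average 1.66 and 1.36 FPKM.

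Core and 19S levels varied between libraries about as much as other genes of similar level. The coefficient of variation over all 12 had a median of 6.98% for the constitutive core and 5.94% for the 19S particle, against 6.2% for the 1530 tested genes that averaged 40 to 130 FPKM. The ATPase Psmc3 varied least, by 2.67%. The immunoproteasome had a median of 21.6%, with Psmb10 at 6.9% and Psmb8 at 21.9%. The core chaperones had a median of 13.2%, and Psmg4, the highest of them, 16.5%. All tested genes had a median level of 11.3 FPKM and a median coefficient of variation of 8.01%. Levels near 1 FPKM vary more in any table. The core chaperones lay at 7.17 to 13.1 FPKM, and no set of other genes at that level was compared. The part of abundance in these figures was not tested.

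The first comparison asked how winter and summer brains differed over both sexes. None of the 47 tested proteasome genes was called by limma at an adjusted p under 0.05, against 0.00765% of all genes tested (smallest adjusted p among the 47, 0.997). At an unadjusted p under 0.05 there was 1 of 47, or 2.13%, against 4.88% of all genes. Winter minus summer differences were positive for 35 of 47 genes, or 74.5%, against 47.9% of all tested. Their median was 0.03 on the log2(FPKM + 1) scale, and that of all tested genes -0.003. The winter and summer libraries overlapped for each of the 47, while 0.283% of all genes had no overlap. The proteasome genes moved together within libraries, and in male winter replicate 2, 41 of 47 lay above their mean. Counts of signs and of overlaps, here and in the contrasts below, are therefore not counts of independent genes.

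In the constitutive core 13 of 14 differences were positive with a median of 0.03, and in the 19S particle 13 of 17 with a median of 0.02. Psmb2, a structural beta subunit, had 0.12 ± 0.06 (SE, limma adjusted p = 0.997), and 0.06 without female summer replicate 3. In winter it ranged over 60.45 to 70.08 FPKM with a median of 63.3, and in summer over 48.7 to 64.03 FPKM with a median of 60.3. The alpha subunit Psma7 had 0.07 ± 0.04, and the catalytic subunits Psmb5, Psmb6 and Psmb7 had 0.01 ± 0.06, 0.03 ± 0.06 and 0.01 ± 0.03. The signs of Psmb5 and Psmb6 turned when single libraries were left out. In the 19S particle the smallest p of the non-ATPase subunits belonged to Psmd4, a ubiquitin receptor, at 0.08 ± 0.05. That of the ATPases belonged to Psmc3, at 0.02 ± 0.03. The 95% confidence intervals of the 14 core genes lay between -0.13 for Psma1 and 0.24 for Psmb2. Those of the 17 19S genes lay between -0.15 for Psmc6 and 0.19 for Psmd4. Without female winter replicate 1 the core median was 0.008 and the 19S median -0.002, and the core median was 0.056 without female winter replicate 3.

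All 3 immunoproteasome genes had positive differences over both sexes, with a median of 0.15, and none passed the test. The median was 0.088 without female summer replicate 3. Psmb8, which takes the place of Psmb5, had 1.48, 1.80 and 1.90 FPKM in winter males, against 1.77, 1.24 and 1.02 FPKM in summer males. In winter females it had 2.30, 1.86 and 1.64 FPKM, against 1.92, 1.76 and 1.20 FPKM in summer females. The groups overlapped in both sexes, with 1 summer male library and 2 summer female libraries inside the winter range of their sex. The difference was 0.20 ± 0.09 (SE, limma adjusted p = 0.997, unadjusted p = 0.0575), and 0.31 with a pseudocount of 0.1, which understates low genes less.

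Psmb9, which takes the place of Psmb6, had 1.63, 1.54 and 1.40 FPKM in winter males, against 0.94, 1.18 and 0.97 FPKM in summer males. The male groups did not overlap. It had 1.69, 1.45 and 1.16 FPKM in winter females, against 1.81, 1.55 and 1.06 FPKM in summer females, where both groups spanned much the same range. The difference over both sexes was 0.15 ± 0.08 (limma, adjusted p = 0.997), 0.25 with a pseudocount of 0.1 and 0.09 without female summer replicate 3. Psmb10, which takes the place of Psmb7, had 18.19, 18.67 and 20.08 FPKM in winter males, against 17.26, 16.62 and 17.47 FPKM in summer males. In winter females it had 16.70, 19.46 and 17.32 FPKM, against 18.24, 16.48 and 16.22 FPKM in summer females. All winter males thus lay above all summer males, and the female groups overlapped. The difference was 0.10 ± 0.05 (limma, adjusted p = 0.997).

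Microglial markers, 10 of 10 tested and none at 0, summed to 143 to 155 FPKM in winter and 145 to 160 FPKM in summer libraries. Endothelial markers, 8 of 8 tested, summed to 97.6 to 112 FPKM in winter and 108 to 123 FPKM in summer. The 9 markers of blood leukocytes summed to 0.78 to 1.72 FPKM in winter and 0.88 to 1.75 FPKM in summer, and none reached the filter. The part of these cells in the immunoproteasome values was not tested. The 4 markers of olfactory bulb summed to 32.6 to 43.3 FPKM in winter and 37.7 to 42.2 FPKM in summer, and 3 were tested. Over both sexes Doc2g had -0.29 ± 0.10, Cdhr1 -0.23 ± 0.14 and Tbr1 0.01 ± 0.06 (SE, limma adjusted p = 0.997 in each). The unadjusted p of Doc2g was 0.0118 (limma). The part of olfactory bulb tissue in the proteasome values was not tested.

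Each inducible subunit was set against its constitutive counterpart, and the log2 ratio of FPKM + 1 was compared between seasons with an exact permutation test, two-sided, over the 400 assignments within sex. The smallest p this can give is 0.005, and adjusted values are over the 3 ratios. The ratio of Psmb8 to Psmb5 averaged 2.28% ± 0.304 in winter males, against 1.82% ± 0.679 in summer males (SD, n = 3 each). It averaged 2.72% ± 0.47 in winter females, against 2.28% ± 0.305 in summer females. The groups overlapped in both sexes. The difference in the log2 ratio was 0.18 (exact p = 0.13, adjusted p = 0.195). It was 0.29 with a pseudocount of 0.1 (exact p = 0.115, adjusted p = 0.173). Without male summer replicate 1 it was 0.28 (exact p = 0.01, adjusted p = 0.03), and without male summer replicate 3 it was 0.11. These were the highest and lowest values on leaving out 1 library, and p was not adjusted for that choice. Leaving out a library also leaves fewer than 400 assignments. Over all such omissions of 1 library the exact p of the permutation test ran from 0.01 to 0.315.

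The ratio of Psmb9 to Psmb6 averaged 2.06% ± 0.159 in winter males, against 1.53% ± 0.176 in summer males, with no overlap. It averaged 2.24% ± 0.676 in winter females, against 2.12% ± 0.464 in summer females, with overlap. The difference over both sexes was 0.12 (exact p = 0.3, adjusted p = 0.3), 0.22 with a pseudocount of 0.1. On leaving out female winter replicate 1 it was 0.04, female summer replicate 3, 0.07, and female winter replicate 3, 0.19. The ratio of Psmb10 to Psmb7 averaged 15.0% ± 0.932 in winter males, against 14.3% ± 0.254 in summer males. It averaged 14.2% ± 1.46 in winter females, against 12.9% ± 0.661 in summer females. The difference was 0.09 (exact p = 0.075, adjusted p = 0.195). It was 0.12 without female winter replicate 1 (exact p = 0.035, adjusted p = 0.105) and 0.05 without female winter replicate 2. On leaving out 1 library the exact p of this difference ran from 0.035 to 0.185. Over all 12 libraries none of the 3 ratios passed the test.

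**Figure D2:**
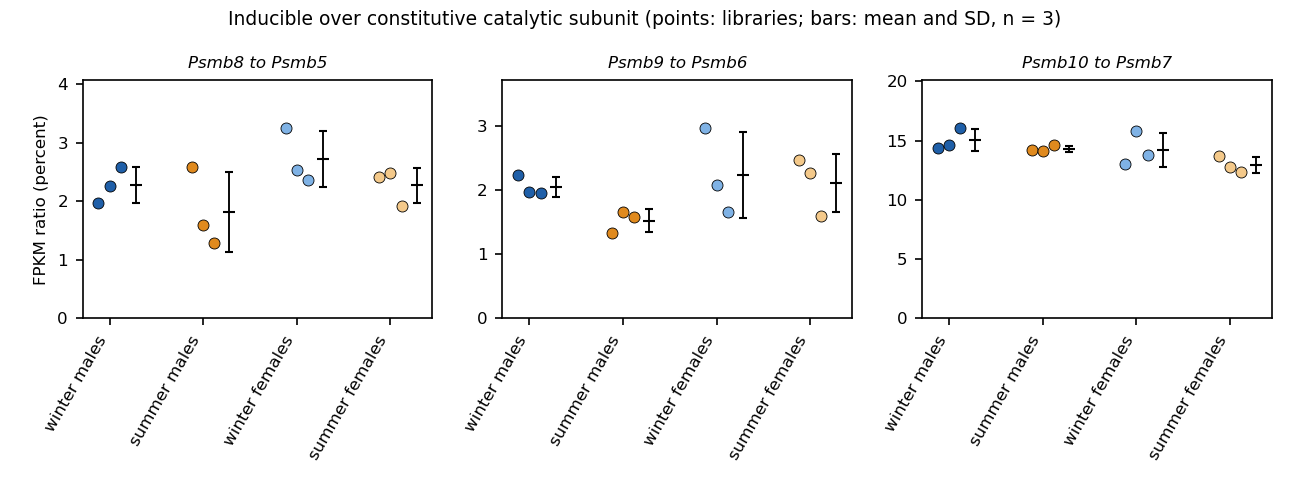
FPKM of each inducible catalytic subunit as a percentage of the constitutive one it replaces, by group; points are libraries and bars the mean and SD (n = 3). Summer males show the lowest mean for Psmb8 to Psmb5 and for Psmb9 to Psmb6, at 1.82% and 1.53%. For Psmb10 to Psmb7 the lowest mean is that of summer females, at 12.9%. The groups overlap in females for all 3 ratios, and in males for Psmb8 to Psmb5 and Psmb10 to Psmb7.

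Among activators, 4 of 4 differences were positive and none was called. Psme1 had 0.04 ± 0.05, Psme3 0.04 ± 0.04 and Psme4 0.04 ± 0.05. Psme2 had 0.21 ± 0.13 (SE, limma adjusted p = 0.997), a value that rested on 1 library. It had 24.34, 27.18 and 25.16 FPKM in winter males, against 24.66, 23.28 and 23.55 FPKM in summer males. In winter females it had 25.06, 24.19 and 25.28 FPKM, against 26.66, 12.18 and 23.63 FPKM in summer females. The low value is that of female summer replicate 2, where its partner Psme1 stood at 23.15 FPKM and the copy Psme2b at 0.22 FPKM. Without that library the difference was 0.04. The inhibitor Psmf1 had 0.08 ± 0.07, or 0.02 without female summer replicate 3. Psmc3ip had -0.04 ± 0.09, or 0.003 without male summer replicate 1.

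The assembly factors had mostly negative differences, with 3 of 4 core chaperones and 3 of 3 19S chaperones lower in winter on average, none past the test. Psmg1, which with Psmg2 helps the alpha ring to form, was the 1 gene with an unadjusted p under 0.05. It had 9.47, 9.26 and 8.18 FPKM in winter males, against 10.75, 8.50 and 9.56 FPKM in summer males. It had 9.47, 8.17 and 7.73 FPKM in winter females, against 9.60, 10.77 and 9.98 FPKM in summer females. The male groups overlapped and the female groups did not. The difference was -0.16 ± 0.06 (limma, adjusted p = 0.997, unadjusted p = 0.0251). Its partner Psmg2 had -0.09 ± 0.06 and Psmg3 -0.05 ± 0.10, while Psmg4, the partner of Psmg3, had 0.10 ± 0.10. The 19S chaperone Psmd10, also known as gankyrin, had -0.08 ± 0.06.

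In males alone none of the 47 genes was called (limma, smallest adjusted p = 0.972), against 0.00765% of all genes, and 2 of 47, or 4.26%, had an unadjusted p under 0.05, against 5.01% of all. Psmb9 had the smallest p, at 0.31 ± 0.12 (SE, limma adjusted p = 0.972). With a pseudocount of 0.1 in place of 1 it was 0.53. The structural subunit Psmb3 had 72.83, 74.08 and 72.47 FPKM in winter males, against 67.38, 68.40 and 62.13 FPKM in summer males. The groups did not overlap, and the difference was 0.15 ± 0.06 (limma, adjusted p = 0.972). The winter males lay above all summer males for 7 of 47 genes, or 14.9%, against 6.12% of all genes tested. These were Psma7, Psmb3, Psmb6, Psmb7, Psmb9, Psmb10 and Psmd3, of which 4 belong to the constitutive core and 2 to the immunoproteasome. None lay wholly below, against 6.53% of all genes.

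Differences were positive for 29 of 47 genes, or 61.7%, against 48% of all tested. Class medians in males were 0.23 for the immunoproteasome, 0.06 for the constitutive core and 0.001 for the 19S particle, against -0.004 for all tested genes. Transcript GC content had medians of 54.1%, 49.2% and 49.7% in these classes, and 49.8% in all tested genes. The Spearman correlation with GC content across 12935 genes was 0.433, 0.1 and 0.546 in winter males, against 0.05, 0.376 and -0.18 in summer males. The part of GC content in these class medians was not tested. Without male winter replicate 2 the core median was 0.018 and the 19S median -0.013. With a pseudocount of 0.1 the immunoproteasome median was 0.366. Other genes with the smallest p of their class were Psmg4 at 0.27 ± 0.14 (0.165 without male summer replicate 3), Psmd3 of the lid at 0.12 ± 0.07, Psma7 at 0.08 ± 0.06, Psmb7 at 0.08 ± 0.05 and Psmc3 at 0.03 ± 0.05 (SE in each). Psme1 had 0.08 ± 0.07, Psmf1 0.11 ± 0.09, Psmd10 -0.13 ± 0.09 and Psmc3ip -0.14 ± 0.12. None of these was called. On leaving out 1 male library Psmc3ip lay between -0.25 and -0.06, Psmd10 between -0.20 and -0.07, Psme1 between 0.03 and 0.13, Psmf1 between 0.06 and 0.15, Psma7 between 0.04 and 0.11, and Psmc3 between 0.01 and 0.05.

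In females alone 0 of 47 genes was called by limma (smallest adjusted p = 1), where the share of all genes called was 0%. At an unadjusted p under 0.05 there was 1 of 47, or 2.13%, against 1.74% of all genes. That gene was Psmg1, at -0.24 ± 0.09 (limma, adjusted p = 1). Winter and summer females did not overlap for Psmg1 and Psmg2, 2 of 47 or 4.26%, both lower in winter, against 4.2% of all genes in either direction and 2.28% lower in winter. Differences were positive for 30 of 47, or 63.8%, against 48.3% of all genes. Psmg2 had 13.31, 12.47 and 12.18 FPKM in winter females, against 13.67, 13.70 and 15.05 FPKM in summer females. All 4 core chaperones had negative values in females, with a median of -0.11.

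The class medians in females were 0.07 for the immunoproteasome, 0.03 for the constitutive core and 0.02 for the 19S particle, against -0.002 for all tested genes. The core median was -0.027 without female winter replicate 1, so its direction rested on that library. The immunoproteasome median was 0.004 without female winter replicate 2. Psme2 had 0.31 ± 0.19, and -0.015 without female summer replicate 2. Psmb8 had 0.16 ± 0.13, 0.041 without female summer replicate 3 alone, and -0.047 without both of the libraries with the strongest GC trends, female winter replicate 1 and female summer replicate 3. Psmb2 had 0.12 ± 0.08 and 0.009 without female summer replicate 3. The base subunit Psmd2 had 0.08 ± 0.06, Psmb7 -0.06 ± 0.05, Psma7 0.05 ± 0.06, Psmc5 0.04 ± 0.08, Psmd9 0.04 ± 0.08, Psmf1 0.06 ± 0.09 and Psmc3ip 0.06 ± 0.12. For Psma7, Psmc5, Psmd9, Psmf1 and Psmc3ip the sign turned when 1 library was left out.

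**Figure D3:**
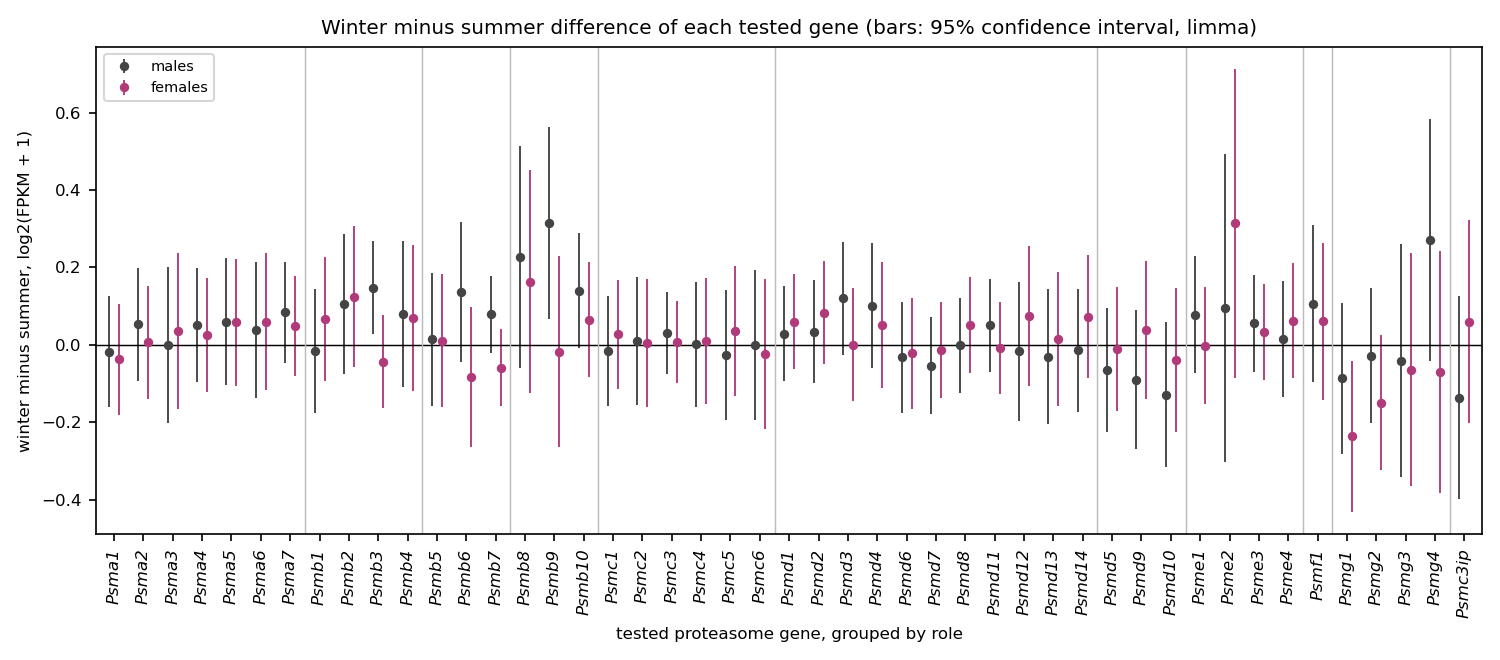
Winter minus summer difference on the log2(FPKM + 1) scale for each of the 47 tested genes, in males and females, with 95% confidence intervals from limma. Most intervals include 0; the exceptions are Psmb3 and Psmb9 in males, at 0.15 and 0.31, and Psmg1 in females, at -0.24, none of which passed after adjustment over 13071 genes.

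Whether the season difference itself depended on sex was tested as the female minus the male difference. Limma called 0 of 47 genes (smallest adjusted p = 0.999), where 0% of all genes were called, and 1 of 47, or 2.13%, had an unadjusted p under 0.05, against 1.8% of all. That gene was Psmb3 at -0.19 ± 0.08 (limma, adjusted p = 0.999), for which winter females stood at 70.1 ± 3.98 FPKM and summer females at 72.2 ± 1.27 FPKM (SD, n = 3). Psmb9 had -0.33 ± 0.16, Psmb7 -0.14 ± 0.07 and Psmg4 -0.34 ± 0.21. Psmg4 was -0.162 without female winter replicate 2. The values of all 3 immunoproteasome genes and all 3 constitutive catalytic subunits were negative, with medians of -0.08 and -0.14. The constitutive core had a median of -0.02 and the 19S particle 0.03, against 0.004 for all tested genes. Without female winter replicate 1 these 2 class medians were -0.078 and -0.016. The smallest p-values of the remaining classes belonged to Psma2 at -0.05 ± 0.10, Psmc5 at 0.06 ± 0.11, Psmd3 at -0.12 ± 0.10, Psmd9 at 0.13 ± 0.12, Psme2 at 0.22 ± 0.26, Psmf1 at -0.05 ± 0.13 and Psmc3ip at 0.20 ± 0.17.

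Female and male brains were compared over both seasons. None of the 47 genes was called by limma, against 0.0612% of all genes (smallest adjusted p = 0.371). At an unadjusted p under 0.05 there were 4 of 47, or 8.51%, against 11.6% of all genes, all 4 higher in females. Differences were positive for 32 of 47, or 68.1%, against 55.3% of all genes. All 47 genes overlapped between the sexes, while 0.643% of all genes did not, 0.398% being higher in females. Psma5, an alpha subunit, had 0.16 ± 0.05 for female minus male. It stood at 63.2 ± 2.33 FPKM in winter females and 56.5 ± 6.54 FPKM in winter males, and at 60.6 ± 2.41 FPKM in summer females and 54.0 ± 3.71 FPKM in summer males (SD, n = 3 each). Psmd1, a large scaffold subunit of the base, had 0.12 ± 0.04, with 62.8 ± 0.291 FPKM in winter females and 57.2 ± 2.95 FPKM in winter males. Psmc2 had 0.13 ± 0.05 and Psma3 0.15 ± 0.07. All 7 alpha subunits had positive values, with a median of 0.09 against 0.01 for all tested genes, and the 3 catalytic subunits a median of -0.07. Transcript GC content had a median of 45.0% in the alpha subunits, 51.6% in the catalytic subunits and 49.8% in all tested genes. Female winter replicate 1 and female summer replicate 3 carried the strongest GC trends. Without both of them Psma5 was 0.145, Psmd1 0.099, Psma3 0.07 and Psmc2 0.059. Without female winter replicate 1 alone Psma3 was 0.087 and Psmc2 0.073. In both cases libraries with GC trends of the opposite sign stayed in, so these values are not free of GC imbalance. Among them were male winter replicates 1 and 3, with Spearman correlations across 12935 genes of 0.433 and 0.546. Male summer replicate 2 had 0.376 and female summer replicate 1 had 0.472. The part of GC content in the female minus male values was otherwise not tested. Psmb8 had 0.13 ± 0.09, Psmb7 0.06 ± 0.03, Psmb1 0.07 ± 0.05, Psmd5 0.07 ± 0.05, Psme4 0.10 ± 0.05, Psmg3 -0.17 ± 0.10, Psmf1 0.0003 ± 0.07 and Psmc3ip -0.02 ± 0.09.

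Single libraries stood apart within their groups. In male winter replicate 2, 41 of 47 genes lay above their mean over all libraries, or 87.2%, and in female winter replicate 1 it was 38, or 80.9%. In male summer replicate 2 it was 10 of 47, or 21.3%, and in male summer replicate 1 it was 13, or 27.7%. Over all tested genes the same share lay between 44.4% and 54.6% in the 12 libraries. The core median deviation was highest in female winter replicate 1, at 0.12 on the log2 scale, and lowest in male summer replicate 2, at -0.09. The 19S particle was also highest in female winter replicate 1, at 0.09, but lowest in male winter replicate 1, at -0.07. Cerebellar markers summed to 158 FPKM in female winter replicate 1 and to 245 FPKM, the highest sum, in male winter replicate 1. The part of cerebellar tissue in these medians was not tested. The core medians were -0.0085, 0.0748 and -0.0159 in winter males, against -0.0527, -0.0879 and -0.023 in summer males. They did not overlap, but the nearest values, -0.0159 and -0.023, lay closer than the within-group SD of this median, 0.0486. Of all single genes tested, 12.6% had no overlap in males. The immunoproteasome lay between 0.20 in female winter replicate 1 and -0.25 in male summer replicate 3. Within the 47 genes, the Spearman correlation of deviation with GC content was -0.407 in female winter replicate 1 and -0.594 in female summer replicate 3, and 0.615 in male winter replicate 3. It was 0.213 in male winter replicate 2.

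**Figure D4:**
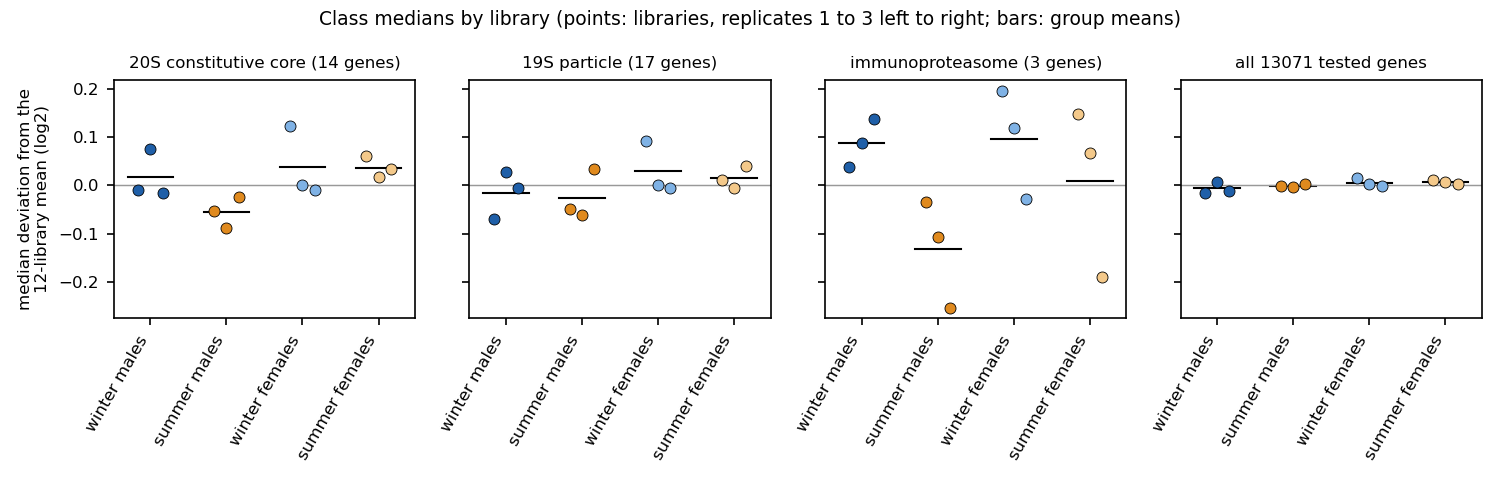
Median deviation of each class from the mean of all 12 libraries on the log2 scale; points are libraries and bars group means. The core and immunoproteasome medians of winter males lie above those of summer males, for the core only narrowly (-0.0159 against -0.023 at the nearest). The female groups overlap, and the median of all 13071 tested genes stays between -0.015 and 0.016.

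Other genes of the pathway were counted from lists of known function. For season over both sexes limma called 0 of 6 tested genes of other proteasome components and assembly, 0 of 8 of NRF1 control, 0 of 15 of ubiquitin, shuttles and deubiquitinases, and 0 of 10 of class I antigen processing and interferon. Their medians were -0.02, -0.03, -0.01 and 0.002. At an unadjusted p under 0.05 there were 0, 0, 1 and 0. The 1 gene was Zfand2a, a stress-induced proteasome-associated factor, named after its values were seen, at 0.10 ± 0.04 (limma, adjusted p = 0.997). Pomp, the chaperone that completes core assembly, had -0.08 ± 0.07. Adrm1, a ubiquitin receptor of the 19S particle, had -0.04 ± 0.06, and Usp14, a deubiquitinase bound to it, 0.02 ± 0.06. Nfe2l1, the gene of NRF1, had 0.04 ± 0.05. It averaged 94.8 FPKM over the 12 libraries. Tap1, the peptide transporter, had 0.07 ± 0.07, and B2m, the class I light chain, -0.07 ± 0.11. None of these was called by limma in any of the 5 contrasts.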

How the data were processed

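Strand-specific poly-A libraries were made from 12 brain samples, per the labels' protocols. The authors deposited FPKM values for 18962 genes, rounded to 2 decimals, and 2 lines held no values. The submitters' processing notes name HISAT, RSEM and GRCm38.p6 without versions. To look for whole reads, low values were tested as multiples of each gene's smallest: 55.2% of 2496 fitted, against 44.9% by chance, so reads were not recovered. FPKM is relative to the rest of a library.

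The log2 of FPKM + 1 was used, a scale on which changes of low genes are understated. Limma 3.58.1 (R 4.3.3) was fitted to the 13071 genes that had 1 FPKM or more in 3 libraries or more, with 4 group means, 8 residual degrees of freedom, trended variances and Benjamini-Hochberg adjustment over these genes. The model was tested on simulated data, with noise drawn independently for each gene and library. Such data lack the trends with GC content that genes share in these libraries, so error rates under such trends were not checked. Ratios used exact permutation. Figures were drawn with matplotlib 3.10.9 under Python 3.11.15. RefSeq held 18836 of the gene identifiers. GC content was read from the longest GENCODE transcript of each symbol, which 99% of tested genes had.

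Members, lists and tests were chosen with earlier results of these data known. Named were the catalytic subunits, activators and inhibitor for season, the smallest p of each class in each contrast, and 6 pathway genes. As alternatives, the replicate block was added, libraries were left out, and the scaling (2 ways), pseudocount, filter and variance trend were changed.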

Additional observations from a re-analysis of the deposited data

Results flagged for a closer look

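Values were examined over the 6 winter and the 6 summer libraries of each of the 47 tested genes, 94 sets in all, of which 8 had a library far from the rest (gap over range above 0.625). Chance marks about 1 set in 20. Psme2 stood at 12.18 FPKM in female summer replicate 2, against 23.28 to 26.66 FPKM in the other summer libraries, and at 27.18 FPKM in male winter replicate 2, against 24.19 to 25.28 FPKM in the other winter libraries. Female winter replicate 1 held Psmc2 at 60.84 FPKM, against 45.97 to 50.99 FPKM in the others, and Psma4 at 75.92 FPKM, against 61.06 to 66.5 FPKM. Female summer replicate 3 held Psmd12 at 45.21 FPKM, against 37.69 to 40.2 FPKM, Psmb2 at 48.7 FPKM, against 58.56 to 64.03 FPKM, and Psmd9 at 4.47 FPKM, against 5.31 to 5.74 FPKM. Psmb3 stood at 65.56 FPKM in female winter replicate 3, against 71.49 to 74.08 FPKM in the other winter libraries. Of the 8 values, 5 came from the 2 libraries with the strongest GC trends, and the part of GC content in them was not tested.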

How the results depend on the processing

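The number of proteasome genes called was 0 in each of the 5 contrasts under every alternative run, including the replicate block, where it was also 0. Same-numbered libraries of different groups had residual correlations of -0.229 to 0.242, against -0.322 to 0.341 for other pairs. Of the same-numbered pairs 6 of 18 were over 0.1, and 4 of 12 libraries were closest to their own number. No pairing by number was seen, but a weak one would escape this check. Of 78 medians, gene differences and ratios recomputed, 61 moved by over 1.5 times or turned sign on leaving out 1 library, 20 of them turning sign, and the causes were not tested. None of the gene differences and ratios passed its test over all 12 libraries, and the class medians had no test. For season over both sexes the log2 ratio lay between 0.114 and 0.28 for Psmb8 to Psmb5, between 0.054 and 0.122 for Psmb10 to Psmb7, and between 0.035 and 0.189 for Psmb9 to Psmb6. The core median lay between -0.027 and 0.054 in females. In the interaction the medians lay between -0.078 and 0.014 for the core, between -0.016 and 0.054 for the 19S particle, and between -0.191 and -0.025 for the immunoproteasome. With a pseudocount of 0.1 the immunoproteasome median in males was 0.366.

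Genes of either sign on leaving out 1 library were, for season over both sexes, Psmb5 (-0.031 to 0.054), Psmb6 (-0.008 to 0.076) and Psmc3ip (-0.102 to 0.003). In females they were Psmd9 (-0.046 to 0.104), Psmc5 (-0.064 to 0.098), Psma7 (-0.013 to 0.087), Psmf1 (-0.065 to 0.153), Psme2 (-0.015 to 0.52) and Psmc3ip (-0.067 to 0.124), while Psmb8 lay between 0.041 and 0.245. In the interaction they were Psma2 (-0.103 to 0.012), Psmc5 (-0.038 to 0.124), Psmf1 (-0.172 to 0.046) and Psme2 (-0.111 to 0.424), and between the sexes Psmc3ip (-0.082 to 0.039) and Psmf1 (-0.046 to 0.063). Psmf1 between the sexes was also -1e-04 with a pseudocount of 0.1 and -0.002 when libraries were scaled to one median. Without both female winter replicate 1 and female summer replicate 3, Psmb5 was -0.03 over both sexes and the ratio of Psmb9 to Psmb6 -0.014. In females the core median was then -0.038, Psmb8 -0.047, Psmd9 -0.085, Psmc5 -0.09 and Psmf1 -0.047. In the interaction the core median was -0.086, the immunoproteasome median -0.275 and Psmc5 -0.064, and between the sexes Psmc3ip was -0.084 and Psmf1 0.072. The 19S median also turned sign, over both sexes (-0.002 to 0.035) and in males (-0.013 to 0.035). The immunoproteasome median lay between 0.088 and 0.198 over both sexes and between 0.004 and 0.115 in females. The unknown read depth limits Psmb8, Psmb9 and Psmc3ip most, which lie near 1 FPKM.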
